A study of Mus musculus with 6 samples.

Results

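The 8 genes described here encode 7 enzymes and 1 carrier protein best known from liver, kidney and gut: Cyp7a1, Acnat2, Aass, Grhpr, Galt, Ggh, Aldh1b1 and Ttpa. They were taken by name from 53546 gene features counted in RNA sequencing libraries, and all 8 were found. The 6 libraries came from mice of strain C57BL/6 with no allele or agent named (the series text calls the uninjured mice wild), with 3 control libraries and 3 from mice with a spinal cord injury. Their tissue is given as spinal cord and again as intervertebral disc, and the series text speaks of retina of mice aged 21 days. No time after injury, injury method or sham operation is given, and nothing says whether a library came from 1 animal or from a pool. Separate animals behind the libraries are not stated either, so that a p-value here reads the spread among 6 libraries, part or all of which may be technical.

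In the liver, Cyp7a1 sets the pace of bile acid synthesis, and enzymes of the Baat family, to which Acnat2 belongs, join acyl groups to amino acids. Aass starts the breakdown of lysine in mitochondria, Grhpr clears glyoxylate before it can become oxalate, Galt runs the middle step of galactose use, and Ggh trims the glutamate tail of folates in lysosomes. Aldh1b1 oxidises aldehydes in mitochondria, and Ttpa, which is a lipid carrier and no enzyme, loads vitamin E for export from hepatocytes. Several of these genes are also known outside epithelial organs, so their RNA alone does not name a tissue.

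Total counts were 2385703 to 3921627 per library, and levels are given as CPM (counts divided by the library's total and multiplied by 1000000). Controls 1 and 2 stood apart from the other 4 libraries. The summed level of 12 neural and glial genes, among them Ptprz1 and Gpr37, was 32.1 and 36.7 CPM in controls 1 and 2, against 6761 in control 3 and 6877 to 7313 in the injury libraries. Of these 12 genes, 4 were at 0 in control 1 and 2 were at 0 in control 2. The summed level of 6 genes of kidney tubule transport ran the other way, with 2611 and 1842 CPM in controls 1 and 2 against 2.93 to 6.19 in the other 4. All 6 of these were above 0 in both controls. Neural markers were thus present in 4 libraries. They were listed as neural and glial, not as genes of spinal cord, so they do not tell spinal cord from the retina of the series text. The disc label could not be checked because none of 4 cartilage genes lay on its own exons in the files. Each value below is therefore given by library, and each comparison with and without the libraries that stand apart. In bulk RNA, fewer cells of a type and less RNA per cell cannot be told apart.

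Names were checked by position, because a name in the files did not always stand on the exons of its gene. A feature was taken as being on its own exons when 90% or more of its exonic length fell within exons that GENCODE M21 (build GRCm38) lists under the same name. This held for 1740 features and for all 8 genes. The build of the files is not named, and 7 of the 8 genes have the same start and end there as in GRCm38. Cyp7a1 lay at chr4:6265612-6275633 (minus strand, 6 merged exon blocks), Acnat2 at chr4:49379840-49408151 (minus, 6 blocks) and Galt at chr4:41755228-41758695 (plus, 8 blocks). Grhpr lay at chr4:44981395-44990734 (plus, 10 blocks), Aldh1b1 at chr4:45799022-45804604 (plus, 2 blocks), Ttpa at chr4:20007938-20030785 (plus, 7 blocks) and Ggh at chr4:20042052-20066750 (plus, 9 blocks). Aass lay at chr6:23072172-23132985 (minus, 25 blocks), 1 base below its GRCm38 position, with 99.35% of its bases on its own exons. Ttpa and Ggh are neighbours, 11.3 kb apart.

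The sequences that bear on what was counted are those of Acnat2 and its near copy Acnat1, whose open reading frames begin almost alike. The first 150 bases of each frame, from the GENCODE M21 transcripts on GRCm38, are shown with the single differing base in capitals.
Acnat2: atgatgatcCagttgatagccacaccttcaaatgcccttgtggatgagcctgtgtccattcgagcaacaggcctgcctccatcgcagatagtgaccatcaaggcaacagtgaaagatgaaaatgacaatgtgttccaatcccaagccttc
Acnat1: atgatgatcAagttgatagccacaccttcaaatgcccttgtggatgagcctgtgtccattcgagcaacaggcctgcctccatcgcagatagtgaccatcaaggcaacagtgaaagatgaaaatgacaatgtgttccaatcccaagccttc
Over 1251 aligned bases the frames were 96.2% identical, with an identical run of 200 bases from base 305 to base 504 of the Acnat2 frame. Baat, which conjugates bile acids, shared 64.4% of aligned bases with Acnat2. Of the 50-base words of the Acnat2 transcripts, 30.0% also occurred in Acnat1 and in no other gene. The counts leave out reads that map to several places, so reads from these stretches of either gene would be missing if their aligner marked them so. Of the Galt words, 25.8% occurred in other genes. The other 6 genes shared no such word with another gene.

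Promoter sequences were at hand for 5 of the 8 genes, from RefSeq on GRCm38.p6, and 3 are shown, those of genes that differed most between libraries. Each runs from 250 bases before the annotated start to 50 after it. Capitals mark 3 motifs that were searched on both strands: the CCAAT box (CCAAT), the GC box (GGGCGG) and a core of the HNF1 motif (GTTAAT), HNF1 being a factor known from liver and kidney.
Acnat2, chr4:49408102-49408401, minus strand: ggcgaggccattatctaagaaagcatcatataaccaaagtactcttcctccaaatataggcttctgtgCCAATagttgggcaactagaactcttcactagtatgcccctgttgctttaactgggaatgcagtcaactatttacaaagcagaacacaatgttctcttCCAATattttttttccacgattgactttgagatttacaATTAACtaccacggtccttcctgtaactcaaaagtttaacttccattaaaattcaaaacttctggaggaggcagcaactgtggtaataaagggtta
Aass, chr6:23132937-23133236, minus strand: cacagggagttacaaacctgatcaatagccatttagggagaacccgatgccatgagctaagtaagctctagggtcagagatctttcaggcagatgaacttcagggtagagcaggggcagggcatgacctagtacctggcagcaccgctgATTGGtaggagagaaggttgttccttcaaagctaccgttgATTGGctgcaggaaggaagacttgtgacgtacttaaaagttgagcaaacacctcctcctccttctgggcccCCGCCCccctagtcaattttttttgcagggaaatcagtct
Aldh1b1, chr4:45798772-45799071, plus strand: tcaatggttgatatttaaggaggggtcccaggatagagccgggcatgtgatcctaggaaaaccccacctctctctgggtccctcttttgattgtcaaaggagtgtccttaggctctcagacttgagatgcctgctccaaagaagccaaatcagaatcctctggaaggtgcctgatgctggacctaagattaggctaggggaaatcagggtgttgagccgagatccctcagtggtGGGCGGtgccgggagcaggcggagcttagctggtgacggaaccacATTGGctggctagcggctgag
The Acnat2 window held 3 CpG pairs and the Aass window 5, against a median of 7 (quartiles 3 and 20) over 32851 promoters of the same length. The Aldh1b1 window held 7 and the Grhpr window 14. A CCAAT box was found in the Acnat2, Aass and Aldh1b1 windows and in 37.4% of all promoters. A GC box was found in the Aass, Aldh1b1 and Grhpr windows and in 35.7% of all. The HNF1 core stood in the Acnat2 window and in 7.10% of all promoters. Neither TATAAA (13.6% of all) nor the HNF4 core CAAAGTCC (1.42%) was found in these 4 windows. Left out of these tallies are a further Acnat2 window and the windows of Galt. The further Acnat2 window held 1 CpG pair, 1 CCAAT box and 1 HNF1 core. Those of Galt held 16 and 13 CpG pairs, the first with 2 CCAAT and 2 GC boxes and the other with none. A match is a run of letters and no evidence of binding.

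Of the bile acid enzyme Cyp7a1 no RNA was detected, and Acnat2, a relative of Baat, was found in controls 1 and 2 only. Whether Acnat2 acts on bile acids was not tested. Cyp7a1 had 0 of 18572259 counts over the 6 libraries, which allows a level of up to 0.162 CPM over all of them and of up to 0.765 to 1.26 CPM in a single library (3 counts, counting error only). Acnat2 had 1687 counts (433 CPM) in control 1 and 207 counts (52.8 CPM) in control 2. It had 0 counts in control 3 and in each of the 3 injury libraries, which allows up to 0.279 CPM over these 4. Set against 3 counts over the 3 injury libraries, Acnat2 was at least 1175-fold higher in control 1 and at least 143-fold higher in control 2. Of its bases, 1.66% also belong to Gm12451, an antisense pseudogene with 41.1 and 7.39 CPM in controls 1 and 2 and 0 counts elsewhere. Strand was not used in counting, and reads that overlap both were left out.

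Lysine and glyoxylate breakdown was represented by Aass and Grhpr, the 2 of 13 listed genes of this group that lay on their own exons. Aass measured 1974 CPM in control 1, 103 in control 2, 20.6 in control 3, and 18.2, 23.9 and 17.6 in injury 1, 2 and 3. Control 1 was 99.2-fold and control 2 5.17-fold above the injury mean of 19.9 ± 3.45 CPM (SD, n = 3), while control 3 lay inside the injury range. The control mean of 699 ± 1105 CPM (SD, n = 3) therefore describes none of its libraries. Grhpr measured 152, 44.9 and 92.2 CPM in controls 1, 2 and 3, whereas injury 1, 2 and 3 gave 118, 99.0 and 94.7. Here control 1 was the highest and control 2 the lowest of all 6, and control 3 lay just under the injury range. The group means were 96.5 ± 53.9 CPM in control and 104 ± 12.4 in injury (SD, n = 3 each).

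Galt was the most even of the genes detected, and Ggh was lower in controls 1 and 2. Galt measured 56.5, 58.9 and 48.6 CPM in controls 1, 2 and 3, whereas injury 1, 2 and 3 gave 57.8, 48.1 and 43.6, so that the groups overlapped. Its means were 54.6 ± 5.41 CPM in control and 49.8 ± 7.27 in injury (SD, n = 3 each). Reads that fall on more than 1 gene were left out, so its level rests on the stretches that are its own. Ggh measured 18.5 and 26.5 CPM in controls 1 and 2, against 92.5 in control 3 and 90.9, 100.4 and 98.1 in injury 1, 2 and 3. Controls 1 and 2 did not overlap with the other 4 libraries, and control 3 lay inside the injury range.

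Aldh1b1 followed the course of Ggh at a lower level. It had 10 and 16 counts in controls 1 and 2, or 2.57 and 4.08 CPM, and 43 to 62 counts in the other 4 libraries. Its level was 21.0 CPM in control 3 and 21.3, 20.02 and 18.0 in injury 1, 2 and 3. The vitamin E carrier Ttpa was low in control 2 alone. It measured 60.3 CPM in control 1, 11.98 in control 2, 47.0 in control 3, and 40.6, 61.1 and 60.8 in injury 1, 2 and 3. Ttpa and its neighbour Ggh thus differed in course: control 1 lay inside the injury range for Ttpa and below it for Ggh.

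**Figure D1:**
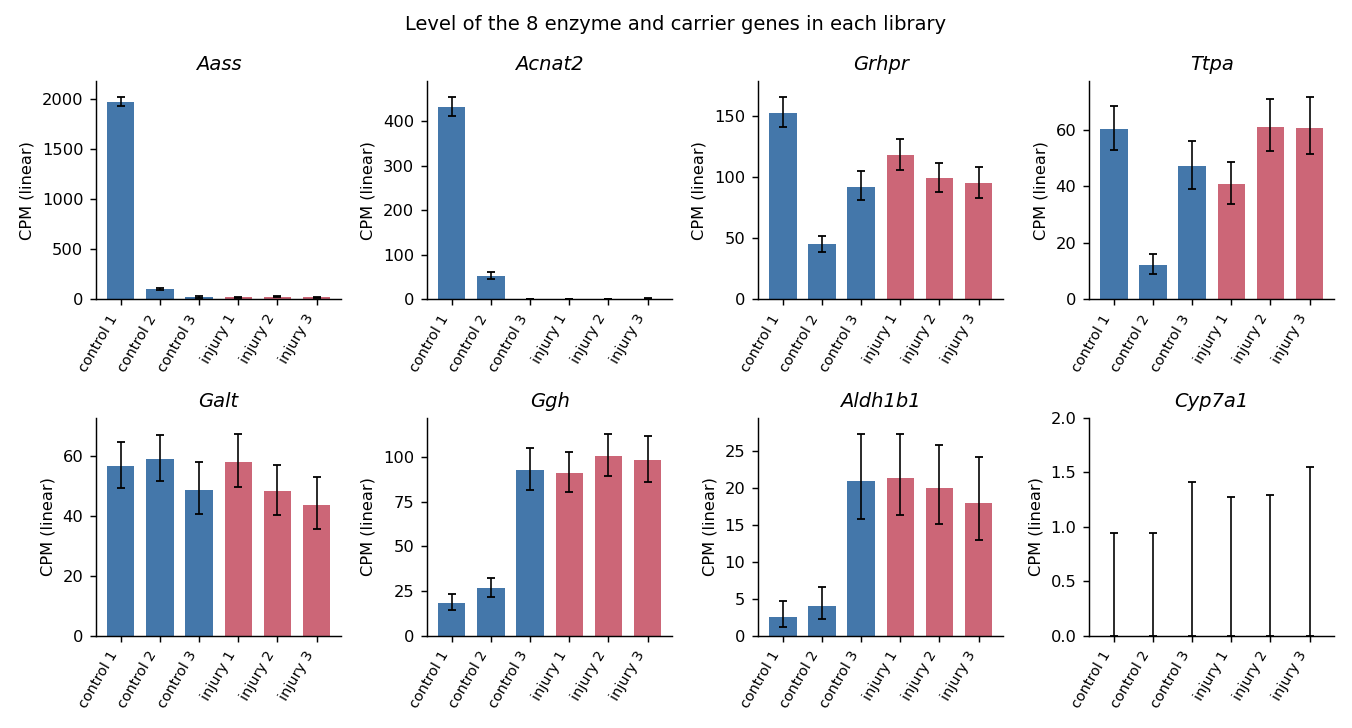
Level of each of the 8 genes in each of the 6 libraries, in CPM on a linear axis that starts at 0 and differs between panels; bars are single libraries (blue control, red injury) and error bars the exact 95% Poisson interval of the count. Aass and Acnat2 stand high in control 1, Ggh and Aldh1b1 stand low in controls 1 and 2, and Cyp7a1 has no count in any library.

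Per kilobase of exon, so that genes can be set side by side, the mean levels over the 6 libraries fell in the order Aass (94.2 CPM per kb), Grhpr (62.5), Acnat2 (46.4), Ggh (36.2), Galt (21.1), Ttpa (13.5), Aldh1b1 (6.31) and Cyp7a1 (0). The places of Aass and Acnat2 in this order rest on control 1. Among the 1740 features on their own exons, Aass ranked 4 in control 1 and 165 in control 2, and 360 to 377 in the other 4 libraries. Acnat2 ranked 7 in control 1 and 142 in control 2. Grhpr ranked 29 in control 1 and 81 to 159 in the others, and in control 3 and the injury libraries it was the highest of the 8 genes per kilobase.

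Controls 1 and 2 both held few neural and many kidney tubule counts, but differed between themselves in some of these genes and in some markers. The ratio of CPM in control 1 to CPM in control 2 was 19.2 for Aass (exact 95% interval 17.3 to 21.2) and 8.20 for Acnat2 (7.10 to 9.52). It was 5.03 for Ttpa (3.67 to 7.04) and 3.40 for Grhpr (2.87 to 4.04). The ratio for Galt was 0.959 (0.793 to 1.16), for Ggh 0.697 (0.509 to 0.950) and for Aldh1b1 0.629 (0.255 to 1.47). So 4 genes were higher in control 1 than in control 2 beyond counting error, and the intervals compare 2 libraries, not conditions. Over 441 features on their own exons with at least 50 counts in these 2 libraries together, the median ratio was 0.715 and the range from the 5th to the 95th percentile was 0.0831 to 2.39. A ratio above 3 was found for 3.40% of them and a ratio above 8 for 1.59%. With TMM scaling (edgeR's trimmed mean of M-values) in place of total counts, the ratios were 28.3 for Aass, 12.1 for Acnat2, 7.43 for Ttpa and 5.01 for Grhpr. Under TMM the ratio crossed 1 for Galt (1.41) and Ggh (1.03), so no direction between the 2 libraries is given for these.

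Of the genes outside the 8, Pdk4, a kinase that holds back pyruvate oxidation, had a ratio of 55.1, and the kidney tubule transporter Slc7a13 had 8.83. The transport gene Stra6l stood at 1.76, and others of the kidney list were lower, with 0.722 for Slc13a1, 0.951 for Aqp3 and 0.645 for Atp6v0d2, and Acnat1 stood at 0.721. These genes were chosen for display after their values were seen. Among genes absent or lower elsewhere, the difference between the 2 libraries thus ran through some and not through others. It also ran through Ttpa and Grhpr, which measured 40.6 to 61.1 and 92.2 to 118 CPM in control 3 and the injury libraries. The cause of the difference was not tested.

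**Figure D2:**
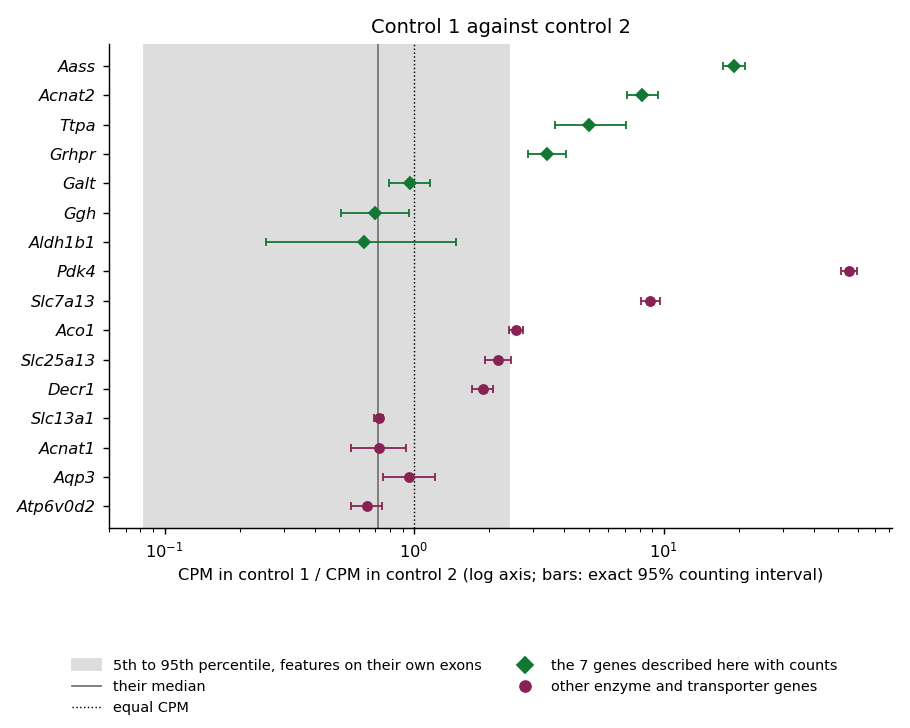
CPM in control 1 divided by CPM in control 2 on a log axis, for the 7 of 8 genes with counts (diamonds) and 9 other enzyme and transporter genes (circles), with exact 95% counting intervals; grey marks the 5th to 95th percentile and the line the median of 441 features on their own exons. Aass, Acnat2, Ttpa and Grhpr lie above the grey band, whereas Galt, Ggh and Aldh1b1 lie inside it.

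For injury against control over all 6 libraries, none of the 8 genes passed the test. In edgeR's quasi-likelihood test with Benjamini-Hochberg adjustment, 0 of 12646 tested features passed 0.05 (0%), with 3245 at an unadjusted p under 0.05. DESeq2 called 1503 features, none of the 8 genes among them, and gave Aass no adjusted p. Of the 8, 6 entered the test, since Cyp7a1 and Acnat2 did not pass the filter on low counts. The log2 fold change of injury over control was -5.22 for Aass (SE 1.78, edgeR adjusted p = 0.142), 1.28 for Aldh1b1 (SE 0.81, adjusted p = 0.316) and 1.24 for Ggh (SE 0.63, adjusted p = 0.252). It was 0.49 for Ttpa (SE 0.69), 0.15 for Grhpr (SE 0.57) and 0.01 for Galt (SE 0.30), with edgeR adjusted p-values of 0.622, 0.870 and 0.985.

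Without control 3, the comparison is between controls 1 and 2 and the 3 injury libraries, and 3 of the 6 genes that are tested with all 6 libraries passed. In this edgeR fit, 4621 of 15320 features (30.2%) passed as higher after injury and 5610 (36.6%) as lower. Against that background, 2 of the 6 genes higher and 1 lower is no result about these genes as a group. Aass was lower, by a log2 fold change of -5.48 (SE 1.19, edgeR adjusted p = 0.00690). Ggh was higher, by 2.61 (SE 0.24, edgeR adjusted p = 3.33e-04), and Aldh1b1 was higher, by 3.08 (SE 0.35, edgeR adjusted p = 7.03e-04). These 3 genes passed in the same directions with total count scaling, with RLE scaling and with DESeq2. Acnat2 entered this fit only through controls 1 and 2, where it is high, so its call there is no test and its levels stand as described above. Ttpa at 0.88 (SE 0.75), Grhpr at 0.39 (SE 0.60) and Galt at 0.25 (SE 0.26) did not pass, with edgeR adjusted p-values of 0.326, 0.588 and 0.414. Over all features tested the median log2 fold change was -0.20 and over those on their own exons 1.04, neither limited to features tested with all 6 libraries. Over the 6 genes, which are so limited, it was 0.64. The libraries compared here also differ in the summed neural and kidney tubule markers given above. The part of these marker differences in the changes of the 3 genes was not tested, and in this comparison injury cannot be told apart from what else sets controls 1 and 2 apart.

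Without controls 1 and 2, control 3 stood against the 3 injury libraries, and none of the 6 genes tested passed. Here 939 of 13857 features (6.78%) passed in edgeR. The log2 fold changes were 0.29 for Grhpr (SE 0.17), 0.07 for Aass (SE 0.29), 0.03 for Aldh1b1 (SE 0.28), 0.18 for Ggh (SE 0.17), 0.32 for Ttpa (SE 0.24) and 0.16 for Galt (SE 0.20). Their edgeR adjusted p-values ran from 0.291 for Grhpr to 0.951 for Aldh1b1. With its 1 control library, this fit borrows the spread of the injury libraries for that control. In CPM, control 3 lay inside the injury range for 5 of these 6 genes and under it for Grhpr.

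**Figure D3:**
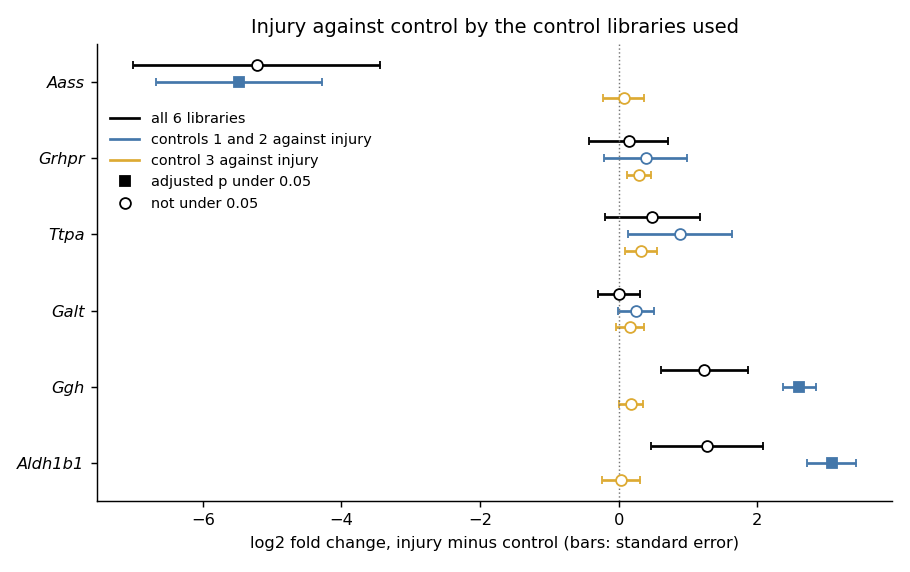
Fitted log2 fold change, injury minus control, with its standard error, for the 6 genes tested with all 6 libraries (black), without control 3 (blue) and without controls 1 and 2 (yellow); filled squares mark edgeR adjusted p under 0.05. Aass, Ggh and Aldh1b1 lie past the threshold without control 3, do not pass with all 6 libraries, and lie near 0 where control 3 is the only control.

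The other genes of these pathways gave the following picture in the fit without control 3. The bile acid list holds 13 genes, of which Cyp7a1, Acnat2, Acnat1 and Baat lay on their own exons. Acnat1 measured 28.5 and 39.5 CPM in controls 1 and 2 and 0.344 to 0.702 in the other 4 libraries. Neither Acnat1 nor Acnat2 passed the filter with all 6 libraries, so no test is given for this list. Baat stayed at 1.78 CPM or less in all 6 libraries. The lists of galactose and folate genes and of aldehyde dehydrogenases held no tested gene on its own exons beside Galt, Ggh and Aldh1b1. Among carriers related to Ttpa, Clvs1, a carrier of the same lipid-binding fold known from neurons, had 0 counts in controls 1 and 2 and 167 to 194 CPM in the others.

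Of 15 further enzyme genes known from liver, kidney or gut and lying near the 8 genes on chromosomes 4 and 6, 11 were tested both with all 6 libraries and without control 3. Without control 3, 6 of these passed as higher after injury and 1, Pdk4, as lower, with a median log2 fold change of 1.62. Among all 510 tested features on their own exons, 271 were higher and 97 lower, with a median of 1.04. Those 510 were not limited to features also tested with all 6 libraries. With all 13 genes of the list that this fit tested, 6 were higher and 3 lower, with a median of 0.09. The added genes, Acnat1 and Car9, entered only through controls 1 and 2, where they are high, so nothing particular to the list is read from either count. Pdk4 measured 10104 CPM in control 1 and 183 in control 2, against 85.0 to 101 elsewhere. Aco1, the cytosolic aconitase, at 774 and 302 CPM in controls 1 and 2 and 193 to 226 elsewhere, did not pass (edgeR adjusted p = 0.130). Asns, which makes asparagine, ran the other way, with 37.2 and 28.1 CPM in controls 1 and 2 and 424 to 498 elsewhere, and was higher after injury in this fit (edgeR adjusted p = 3.85e-04). Pon2, a lactonase of cell membranes, was higher too, with 128 and 87.7 CPM in controls 1 and 2 and 236 to 282 elsewhere (edgeR adjusted p = 0.00613). In edgeR, 0 of the 11 passed with all 6 libraries or without controls 1 and 2. With all 6, DESeq2 called none and gave Pdk4 no adjusted p, whereas limma-voom with sample quality weights called 5, namely Pon2, Pdk4, Asns, Coq3 and Nudt2. The latter fit called 7042 of 12646 features and 284 of the 455 on their own exons, so these 5 say nothing particular about the list.

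Of 10 tested enzymes that build or trim glycans, 7 passed as higher after injury and 1 as lower without control 3, with a median log2 fold change of 1.91. Among those higher were the fucosyltransferase Fut9, at 423 and 504 CPM in controls 1 and 2 and 1008 to 1432 elsewhere, and the mannosyltransferase Alg2, at 55.2 and 63.5 against 547 to 712. The endomannosidase Manea, at 78.5 and 93.8 CPM against 340 to 424, and Casd1, which acetylates sialic acid, at 38.2 and 109 against 274 to 343, were higher too. The 1 that was lower, named after its value was seen, was B4galt1, a galactosyltransferase, at 523 and 246 CPM against 28.1 to 45.1. For comparison, 271 of the 510 features on their own exons were higher and 97 lower in that fit, with a median of 1.04, so the count says nothing particular about these enzymes. In edgeR none of the 10 passed with all 6 libraries or without controls 1 and 2. With all 6, DESeq2 called B4galt1 (adjusted p = 0.0452), and 8 of the 10 passed in limma-voom with sample quality weights. The latter fit called 284 of 455 features on their own exons and 7042 of 12646 in all, so nothing particular to these enzymes is read from it.

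Of the hepatocyte markers given here, which are not the whole list, Cyp7a1, Baat and Pon1 were at or near 0. Pon1 had at most 0.513 CPM in any library, Baat at most 1.78 and Cyp7a1 0. Pon3 measured 10.5 and 36.0 CPM in controls 1 and 2 and 34.0 to 54.1 elsewhere. Genes of leukocytes summed to 541 and 1445 CPM in controls 1 and 2 and 216 to 304 elsewhere, so control 2 held the larger sum while Acnat2 and Aass were larger in control 1. Of the sum in control 2, 930 CPM came from Samd9l. Lyn (116 and 236 CPM), Cd72 (40.3 and 123) and Tfec (49.0 and 65.5) were also higher in controls 1 and 2. Elsewhere they measured 47.0 to 103, 0.838 to 11.4 and 0 CPM. Bach2 was level at 76.2 to 87.5 CPM, and Pax5 was lower in controls 1 and 2 (1.28 and 3.31 CPM) than elsewhere (5.27 to 7.96). None of the 3 blood genes lay on its own exons, so blood could not be read.

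Around Acnat2 on chromosome 4, neighbouring genes took different courses. Acnat1, whose middle lies 52.4 kb from the start of Acnat2, was high in controls 1 and 2 only, like Acnat2. Beyond it, Baat at 89.8 kb was near 0 throughout, and Mrpl50 at 109 kb, a protein of the mitochondrial ribosome, measured 82.9 and 80.3 CPM in controls 1 and 2 and 176 to 191 elsewhere. Rnf20 at 236 kb, a ubiquitin ligase, was nearly level at 352 to 435 CPM in all 6 libraries. The large difference in Acnat2 was thus not shared by all genes of the interval.

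**Figure D4:**
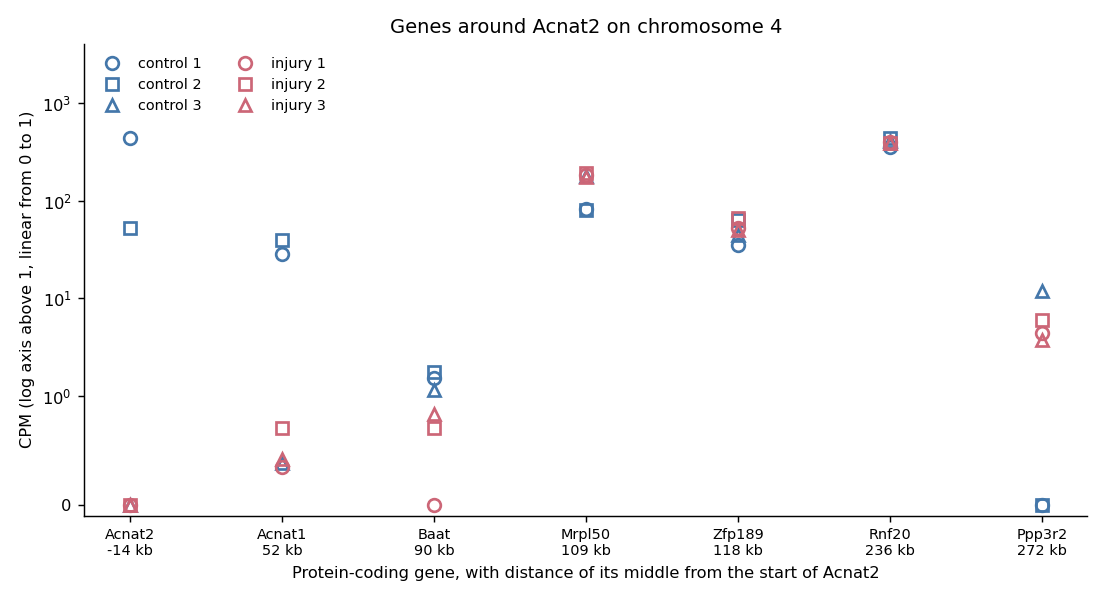
CPM of 7 protein-coding genes around Acnat2 in each library (axis logarithmic above 1 CPM and linear from 0 to 1), ordered by distance in kb from the Acnat2 start; blue symbols are controls and red symbols injury libraries. Acnat2 and Acnat1 are high in controls 1 and 2, whereas Rnf20 is similar in all 6 libraries.

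The genes with the most similar course over the 6 libraries were found by the Euclidean distance between mean-centred log2 CPM (prior count 2), among features on their own exons with at least 60 counts. The nearest to Acnat2 were Slc7a13 (distance 1.68) and the retinol transporter relative Stra6l (2.20). For Aass they were the noncoding RNA Gm11827 (0.65), Pdk4 (1.30) and Gm12451 (1.43). For Grhpr they were Fam214b (0.53), Calb1 (0.66) and Dcaf10 (0.67). Calb1, a calcium-binding protein known from distal kidney tubule and from neurons, was also nearest to Ttpa (0.61), ahead of Tmem106b (0.92) and Tox (0.97). Calb1 measured 249, 78.5 and 231 CPM in controls 1, 2 and 3 and 216 to 252 in the injury libraries, with its low value in control 2 like that of Ttpa and Grhpr.

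The other 3 genes had matches at shorter distances. For Ggh the nearest were Msantd4 (0.16), Aasdhppt (0.25) and the glycan enzyme Manea (0.28). For Aldh1b1 they were Tspan12 (0.37), Nudt2 (0.44) and the choline transporter Slc44a1 (0.44). For Galt they were Fam205a1 (0.18), Anp32b (0.28) and Tmem168 (0.31). Each distance rests on 6 libraries, 2 of which stand apart, so it mostly reads how controls 1 and 2 stood to the rest.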

How the data were processed

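RNA sequencing counts of 6 mouse libraries, 3 control and 3 spinal cord injury, were grouped by the sample group and numbered by the title in the labels. Trizol was used to extract total RNA and a TruSeq kit of Illumina to build libraries, per the labels' protocols. Bowtie 0.12.2, mm8 and mm9 are named in the submitters' processing notes. The deposited counts are whole read pairs per gene name, summed over exons by the authors with featureCounts 2.0.1, per the file headers. Both ends had to map, to the same chromosome, and strand, multi-mapping reads and reads on overlapping genes were not used. So reads of antisense genes and near-identical copies are lost or cannot be told apart. The aligner, build and annotation behind these counts are not given in the sources used here. A series-wide table gave the same counts (0 cells differed, 0 columns of other samples), and its FPKM columns were not used.

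From the counts, CPM on the library total, CPM per kb, exact Poisson and binomial 95% intervals and floors of 3 counts were computed, all of which cover counting error only. Every pair of libraries differed by more than sampling noise (smallest chi-square per feature 3.55), and each counts as 1 sample. Injury was tested against control with edgeR 4.0.16 (R 4.3.3; quasi-likelihood F test after TMM scaling and filterByExpr at its defaults, Benjamini-Hochberg over all tested features, calls at 0.05), after the pipeline was tested on simulated data. Alternatives were other scalings and filters, DESeq2 1.42.0, limma-voom (limma 3.58.1), the replicate number as a block, and leaving out libraries. The fits with total count scaling, RLE scaling or DESeq2 without control 3, and those with control 1 or control 2 alone, were added after seeing the data.

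The 8 genes and all gene lists were chosen with earlier results of these data known. The text names the 8 genes, up to 4 members of each list that lie on their own exons, by mean CPM, and up to 3 nearest profiles of each of the 7 genes with enough counts. Some items that the lists and rules take are not reported here. Genes named outside this rule are said to be so, or are markers and neighbours given for position. Names were read against GENCODE M21, and promoters were taken from RefSeq on GRCm38.p6.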

Additional observations from a re-analysis of the deposited data

How the results depend on the processing

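With all 6 libraries, 0 features and none of the 8 genes passed 0.05 in edgeR, and this did not hold under every alternative. DESeq2 called 1503 features, limma-voom with sample quality weights 7042, and edgeR without controls 1 and 2 called 939. Leaving out 1 library at a time gave 0 to 10231 features and 0 to 4 of the genes, and the only such setting with a call was the one without control 3. The 4 called there were Aass, Ggh, Aldh1b1 and Acnat2. Of these, Acnat2 entered only through controls 1 and 2, so its call is no test. Voom with quality weights called 4 of the 6 genes tested, beside 7042 of 12646 features: Aass lower, and Ggh, Aldh1b1 and Ttpa higher after injury. Without control 3, total count scaling, RLE scaling and DESeq2 each called 4, counting Acnat2, which enters only through controls 1 and 2. These fits called 9834, 10182 and 9820 of 15320 features. Control 1 alone and control 2 alone were also set against the injury libraries. Each lone control takes its spread from the injury libraries, so no calls are read from these fits. Acnat2 entered both only through the lone control, where it is high. Against control 2 alone, Galt was fitted at 0.72 higher after injury although its CPM in control 2, 58.9, was above all 3 injury values. With the replicate number as a block, 0 features and 0 of the genes passed. Same-numbered libraries deviated from their group means with correlations of 0.0311, -0.1258 and 0.0138 over 15224 features, so the numbers were not taken as pairs.

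Of 102 alternative log2 fold changes, 86 kept their direction and side of the threshold, 7 newly passed it, and 9 turned direction, none of these 9 past the threshold. Aass turned to 0.071 without controls 1 and 2. Leaving out 1 library at a time gave -0.29 to 0.83 for Grhpr, -0.016 to 1.07 for Ttpa and -0.11 to 0.28 for Galt, with the lowest value without control 2 each time. With only features on their own exons tested, Grhpr stood at -0.61, Ttpa at -0.23 and Galt at -0.78, and Galt stood at -0.15 with upper quartile and -0.21 with total count scaling. No direction of Grhpr, Ttpa or Galt between the groups is therefore given. Acnat2 has no log2 fold change in the main fit of all 6 libraries because it did not pass the default filter. With no filter beyond 1 count in all, it stood at -11.99 (SE 2.61, edgeR adjusted p = 0.0790). That fit rests on controls 1 and 2 alone for its counts, so it adds nothing to the levels above. DESeq2 gave no adjusted p for Aass.

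The limits are those of 3 libraries a group, of which 2 controls hold few neural and many kidney tubule counts, of total counts of 2385703 to 3921627, and of names that hold by position for 1740 of 53546 features. Levels near the floor of 0.765 to 1.26 CPM per library could not be read.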
